A study of Mus musculus with 4 samples.

Results

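The genes Dbp, Tef, Hlf, Nfil3, Bhlhe40 and Bhlhe41 encode transcription factors that are grouped here as output factors of the circadian clock. They were examined for regions enriched by immunoprecipitation (IP) of the thyroid hormone receptor TRα1 from mouse striatum. The 6 genes were taken as a named family. A peak was assigned to a gene when its summit, the position of highest signal, lay within the RefSeq span of that gene or within 30 kb of it on either side. By this rule 8 of the 7484 deposited peaks lay at 5 of the 6 genes, and Bhlhe40 had none.

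The IP fractions, 3 in number, came from striatum of animals described by the title as Gad2-Cre crossed with Thra-GS, in which TRα1 carries a GS tag. They were recovered on beads coated with IgG, which bind the tag, and were set against 1 input of the same tissue taken without antibody. Gad2-Cre acts in GABAergic neurons, the class to which most neurons of the striatum belong, and, as far as the tag depends on Cre, the peaks speak for the cells in which this driver is active. The age, sex, hormone status and time of day of the animals, and whether the fractions came from separate animals, are not given in the sources used here. What was deposited is 1 list for the whole series with no value per fraction, so no replicate error and no test over samples could be given. An IP from animals without the tag was not analysed here, so recovery by the beads that does not involve the tag was not separated from receptor binding for any of the 8 peaks.

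DBP, TEF and HLF form the PAR family of basic leucine zipper (bZIP) factors, activators named for a domain rich in proline and acidic residues. They bind D-box elements, and NFIL3, also called E4BP4, is a bZIP repressor that competes for the same elements. BHLHE40 and BHLHE41, also called DEC1 and DEC2, are basic helix-loop-helix repressors that bind E-boxes, the elements through which CLOCK and BMAL1 activate Dbp and other output genes. Thyroid hormone receptors bind pairs of a hexamer related to AGGTCA, classically 2 copies in the same direction with 4 bases between them, known as a DR4 element.

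Peaks were found at all 3 PAR genes, which held 6 of the 8, at the repressor gene Nfil3 and at 1 of the 2 Bhlhe genes. Among all 21887 protein-coding genes of the reference table, 32.4% had a peak by the same rule, 7097 genes in number. The strongest peak at a gene had a median fold enrichment of 15.9 over the 5 genes with a peak, beside 7.82 over all 7097. Here fold enrichment is the authors' linear ratio of the pileup at the summit plus 1 to the local background plus 1, so it is smaller than pileup over background. The extended spans of the 6 genes covered 472.8 kb and held peaks at 16.9 per Mb (95% exact Poisson limits 7.3 and 33.3, counting error alone). The extended spans of the other protein-coding genes, merged where they overlap, held 3.96 peaks per Mb. No test was made of these differences, because the 6 genes were chosen with earlier results of the same list known.

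**Figure D1:**
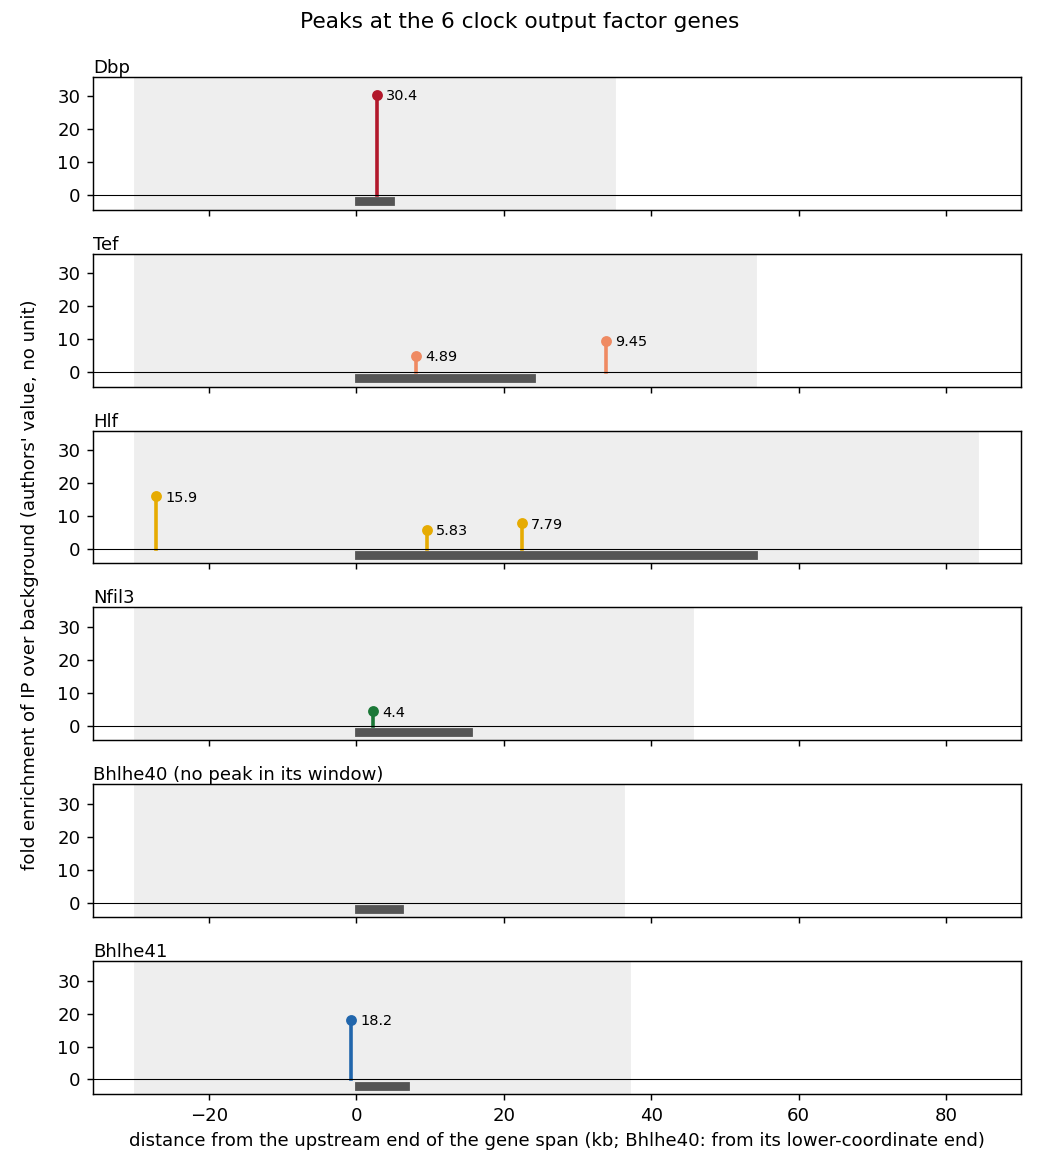
Positions and fold enrichment of the 8 peaks. Each row is 1 gene, drawn in the direction of transcription (Bhlhe40 by coordinate); the x axis is the distance in kb from the upstream end of the gene span, the dark bar is the gene span, the grey area is the span with 30 kb on both sides, and each stem is a peak with its fold enrichment on the y axis. The Dbp stem, at 30.4, is the highest, the Hlf stems lie on both sides of its upstream end, and the Bhlhe40 row is empty.

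Dbp, the founding PAR gene, had the strongest peak of the family and no other within its window. The peak at chr7:45707481-45708139 (GRCm38) was 659 bp wide and stacked 99 fragments at its summit (95% exact Poisson interval 80.5 to 121), over a local background equal to 2.22 fragments. Its fold enrichment of 30.4 ranked 49 among all 7484 peaks, its pileup of 92.96 ranked 70, and its width ranked 86, so that it falls among the 1% of highest pileups. Only 89 of the 7097 protein-coding genes with a peak had a stronger one. The summit lay inside the gene, 2637 bp downstream of the annotated start and 54.6% of the way along the span of 5.10 kb. The next peak lay 58.1 kb below the gene span, inside Mamstr, and had a fold of 9.77. Among protein-coding genes with spans of 2.55 to 10.2 kb, from 1/2 to 2 times that of Dbp, 29.3% had a peak.

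The Dbp peak lies in a crowded neighbourhood. Its summit was within 30 kb of 8 other protein-coding genes, so that 9 could claim it, a number reached or passed at 23 peaks of the list (0.307%). The median over all peaks was 1 gene. Sphk2, a sphingosine kinase gene, was 1579 bp from the summit, Car11, a carbonic anhydrase-related gene, 3197 bp, and Rpl18, a ribosomal protein gene, 7583 bp. Fam83e, Ntn5, Sec1, Spaca4 and Sult2b1 followed at 13287 to 22097 bp. Dbp was the only gene whose span held the summit, and which of the 9 genes the region acts on was not measured.

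Tef, whose factor binds the same D-boxes as DBP, had a pair of weaker peaks. One, at chr15:81810619-81810888, stacked 15 fragments (interval 8.40 to 24.7) and had a fold of 4.89, which 87.8% of the list equals or exceeds. It lay inside the gene, 659 bp upstream of the inner of 2 annotated starts and 8082 bp downstream of the outer one. Its summit was also 14486 bp from the protein-coding gene Zc3h7b and 8142 bp from the non-coding gene Gm17597. The other Tef peak, at chr15:81836492-81836755, stacked 28 fragments (interval 18.6 to 40.5) with a fold of 9.45. That summit was 9742 bp beyond the downstream end of Tef and 11665 bp from Tob2, a gene of the antiproliferative Tob family. The pseudogene Gm8444, at 6695 bp, was nearer than either, and the protein-coding gene Phf5a was 27911 bp away. A peak just outside the rule, 31.5 kb beyond Tef with a fold of 16.3 and 49 fragments, lay inside Tob2 and overlapped its promoter window.

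Hlf had 3 peaks, a number reached by 909 protein-coding genes (4.15%), and no other protein-coding gene lay within 30 kb of any of them. The strongest, at chr11:90417922-90418244, was 27.1 kb upstream of the annotated start, close to the limit of the rule. It stacked 48 fragments (interval 35.4 to 63.6) and had a fold of 15.9, rank 544 of the list. A peak 9.57 kb downstream of the start, at chr11:90381204-90381440, had 30 fragments (interval 20.2 to 42.8) and a fold of 5.83. A peak 22.5 kb downstream, at chr11:90368292-90368573, had 26 fragments (interval 17.0 to 38.1) and a fold of 7.79. The order of the inner peaks therefore differed between fragments and fold. Local background was equal to 4.26 fragments at the first and 2.41 at the second, and the intervals of their fragment counts overlapped. Hlf has the longest span of the family, 54.4 kb, and the 4.15% is not matched to gene span. Of protein-coding genes with spans from 1/2 to 2 times as long, 37.0% had at least 1 peak.

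Nfil3, the repressor that opposes the PAR factors at D-boxes, had 1 peak, the weakest of the 8. It lay inside the gene at chr13:52980505-52980746, 501 bp downstream of the annotated start used here, at 52981039. The RefSeq span of the gene reaches further upstream, to 52982878. The peak stacked 13 fragments (interval 6.92 to 22.2) over a background of 2.13 and had a fold of 4.40, rank 6947 of 7484. Its −log10 q was 3.48, against a list median of 10.6, and Nfil3 is without a peak when a −log10 q of at least 10 is asked for. The summit sat 33 bp from the lower edge of a peak 242 bp wide, whereas the other 7 summits lay between 35.8% and 61.3% of the width. No other protein-coding gene was within 30 kb, and the non-coding gene Gm33424 was 5427 bp away.

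Bhlhe41, which encodes the E-box repressor DEC2, had 1 peak, the second strongest of the family. It lay at chr6:145865923-145866526, outside the gene, with its summit 718 bp upstream of the annotated start. The summit stacked 55 fragments (interval 41.4 to 71.6) over a background of 2.01, and the fold of 18.2 ranked 349. The peak was 604 bp wide, rank 140 of the list. No other protein-coding gene was within 30 kb of it, and the nearest non-coding gene, Gm38927, was 23742 bp away. The next peaks were 112 kb above the gene, fold 9.41, and 135 kb below it, fold 6.20.

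Bhlhe40, which encodes DEC1, the closest relative of DEC2, had no peak in its window. The nearest lay 89.5 kb below the gene at chr6:108570959-108571172, with 18 fragments and a fold of 4.96, and its nearest protein-coding gene was Itpr1, an inositol trisphosphate receptor gene, at 19989 bp. The spans of Bhlhe40 and Bhlhe41 are of similar size, 6.30 and 7.18 kb, and 30.1% of protein-coding genes with spans from 1/2 to 2 times that of Bhlhe40 had a peak. The list gives no signal where no peak was listed. Among peaks whose background was within 5% of the lowest in the list, the smallest stack listed was 11 fragments, and over the whole list it was 10, so smaller stacks at Bhlhe40 would not appear in it.

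**Figure D2:**
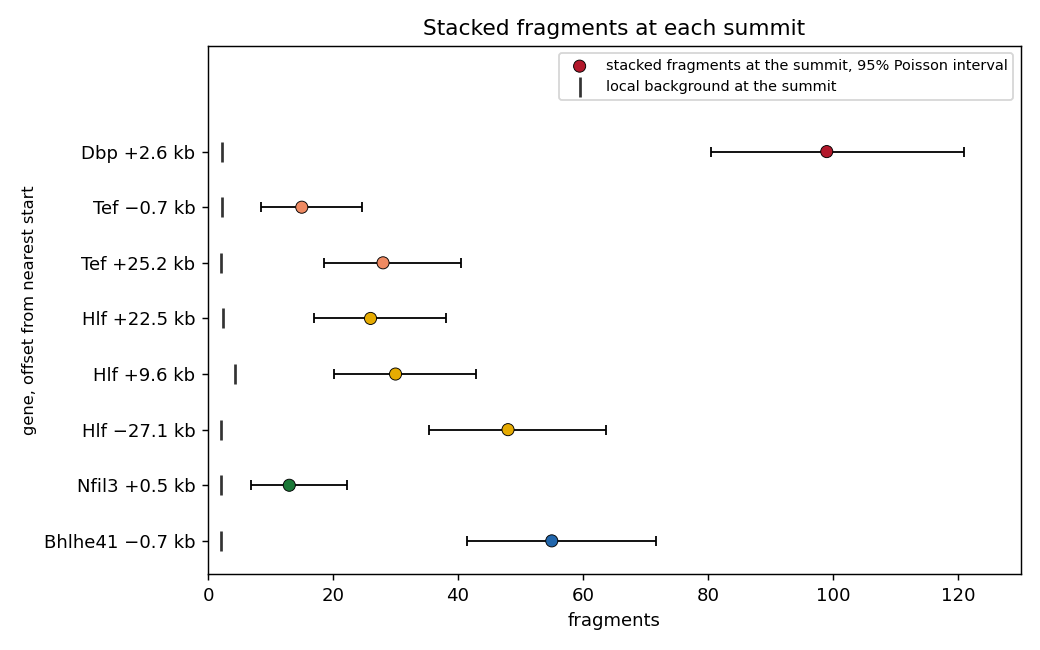
Fragments stacked at the summit of each peak. Rows are the 8 peaks by gene and offset of the summit from the nearest annotated start of that gene (positive is downstream), points are fragment counts with 95% exact Poisson intervals, and vertical ticks are the local background in fragments. Dbp, at 99 fragments, stands clear of the other 7 intervals, Bhlhe41 and the upstream Hlf peak overlap each other at 55 and 48, and Nfil3 and the inner Tef peak are lowest at 13 and 15.

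By stacked fragments the order was Dbp, Bhlhe41, the upstream Hlf peak, the other Hlf peaks with the distal Tef peak, and then the inner Tef peak and Nfil3. Only the interval of Dbp overlapped no other. Bhlhe41 and the upstream Hlf peak could not be separated from each other by counting error, and neither could the inner Tef peak and Nfil3. Neighbouring groups below Dbp overlapped too. The Hlf interval of 20.2 to 42.8 reached those of Bhlhe41, the upstream Hlf peak, the inner Tef peak and Nfil3. Within a gene, the strongest fold was 2.73 times the weakest at Hlf and 1.93 times at Tef. Of the 8 peaks, 5 had a fold at or above the median of the whole list, 6.91, and 3 were below it. Dbp and Bhlhe41 were also the widest, in the top 1.15% and 1.87% of all widths, while the other 6 were 237 to 323 bp wide, beside a list median of 260 bp.

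**Figure D3:**
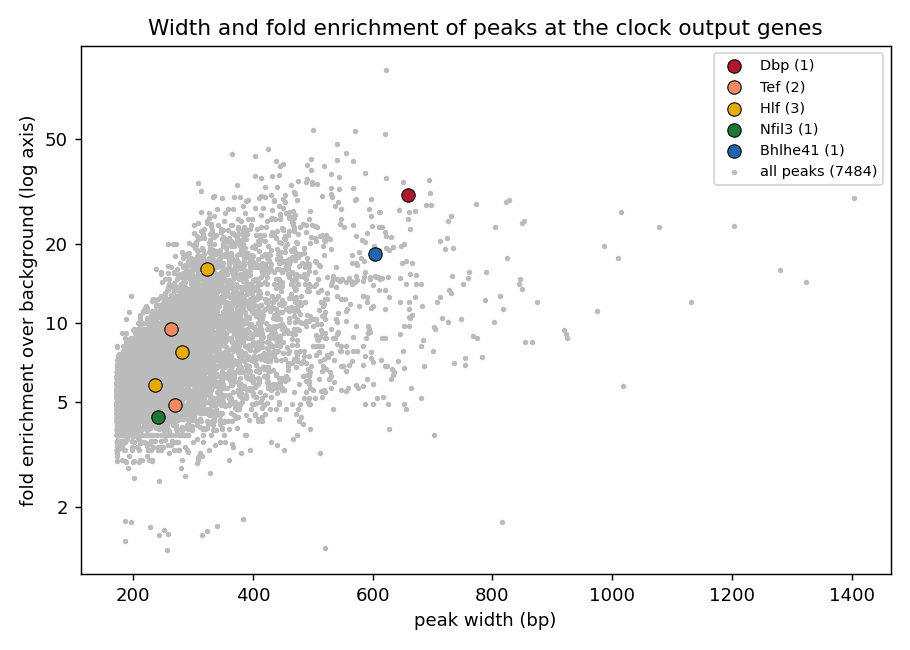
Width and fold enrichment of peaks. Large coloured points are the 8 peaks at the clock output genes and small grey points are all 7484 peaks of the list; the x axis is peak width in bp and the y axis is fold enrichment on a log scale. Dbp (659 bp, fold 30.4) and Bhlhe41 (604 bp, fold 18.2) are the widest and strongest of the 8, and the other 6 are 237 to 323 bp wide with folds of 4.40 to 15.9.

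Relative to the genes, 5 of the 8 summits were inside the span of the member and 3 outside it. Within 1 kb of an annotated start were 3 of the 8, those of Tef (−659 bp), Nfil3 (+501 bp) and Bhlhe41 (−718 bp). Over the peaks of the list on chromosomes for which promoter windows were used here, 16.9% of summits lay within 1 kb of an annotated start. None of the 8 peaks overlapped a promoter window, from 250 bases before to 50 after a start, of its gene, beside 10.1% of the same peaks of the list that overlapped the window of some gene. The 3 peaks nearest to a start stopped 244 to 276 bp short of that window. For 8 of 8 summits the nearest protein-coding gene was the member itself. At 5 of them it was also the only protein-coding gene within 30 kb, a state shared by 46.7% of all peaks. Of the 7484 peaks of the list, 6100 had any protein-coding gene within that distance, as the 8 had by the rule. The shares given for the list include the rest. At those 5 the rule fixed the outcome, and the Dbp and inner Tef summits lay inside the member. Only at the distal Tef peak, 9742 bp from Tef and 11665 bp from Tob2, could another gene have been nearer.

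Promoter windows were available in the RefSeq table (GRCm38.p6) for 5 of the 6 genes, with 2 for Tef; Bhlhe40 had no entry. The 3 windows beside a peak within 1 kb of the start are shown, each 300 bases, 5′ to 3′ in the direction of transcription, so that the letters next to the enriched regions can be read. Capitals mark the matches to the motifs described after them, CACGTG in Tef and Bhlhe41 and the hexamer in Nfil3. The Tef window is chr15:81811164-81811463, plus strand, with the peak 276 bp upstream of it. The Nfil3 window is chr13:52980990-52981289, minus strand, with the peak 244 bp downstream of it. The Bhlhe41 window is chr6:145865371-145865670, minus strand, with the peak 253 bp upstream of it.
Tef inner promoter: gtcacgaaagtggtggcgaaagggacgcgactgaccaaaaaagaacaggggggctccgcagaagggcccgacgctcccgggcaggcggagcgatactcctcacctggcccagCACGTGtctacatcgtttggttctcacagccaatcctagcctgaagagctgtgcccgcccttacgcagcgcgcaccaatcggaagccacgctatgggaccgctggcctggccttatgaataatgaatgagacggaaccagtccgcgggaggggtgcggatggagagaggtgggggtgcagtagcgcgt
Nfil3 promoter: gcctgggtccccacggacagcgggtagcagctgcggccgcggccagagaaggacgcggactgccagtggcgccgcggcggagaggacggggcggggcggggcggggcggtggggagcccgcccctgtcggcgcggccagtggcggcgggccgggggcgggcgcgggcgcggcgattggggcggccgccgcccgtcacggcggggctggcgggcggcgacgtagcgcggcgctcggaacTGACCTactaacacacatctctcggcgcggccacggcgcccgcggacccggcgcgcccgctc
Bhlhe41 promoter: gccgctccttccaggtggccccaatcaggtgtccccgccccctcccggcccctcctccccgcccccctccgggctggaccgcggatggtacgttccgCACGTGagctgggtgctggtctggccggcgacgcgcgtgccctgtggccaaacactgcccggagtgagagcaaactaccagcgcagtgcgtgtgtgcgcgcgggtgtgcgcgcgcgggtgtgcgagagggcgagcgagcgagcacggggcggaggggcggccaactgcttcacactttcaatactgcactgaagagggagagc

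Each window was searched on both strands for 4 motifs. The E-box CACGTG, which reads the same on both strands, was found once in each Tef window, beginning 127 bases before the outer start and 138 bases before the inner one. It was found once in the Bhlhe41 window, 153 bases before the start. Of all 32851 promoter windows 7.15% hold this E-box, and of the 9690 windows with a GC content of at least 60%, as all 6 member windows have (60.3% to 81.7%), 10.8% hold it. The receptor hexamer AGGTCA or its complement TGACCT was found once, in Nfil3, beginning 12 bases before the start, against 16.3% of all windows and 9.63% of those rich in GC. A DR4, with 4 bases of any kind between its 2 hexamers in the same direction, was in none of the 6 windows and in 5 of all 32851 (0.0152%). A D-box, searched as TTACGTAA or TTATGTAA, was in none of the 6 and in 1.06% of all windows. Of the 9690 windows rich in GC, 0 held a DR4 and 35 (0.361%) a D-box, so absence from 6 such windows is the usual state. A hexamer inside a DR4 is also counted as a hexamer. The Dbp and Hlf windows held none of the 4. These are matches of letters in short windows beside the peaks; the sequence under the peaks was not used here.

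Other genes of the clock, from a list of 21, had peaks at 16 (76.2%), beside the 32.4% of all protein-coding genes. They held 54 peaks in all, with a median strongest fold of 9.89. The 32.4% is not matched to gene span, and some clock genes are long: Rora, at 735 kb, held 6 peaks and Npas2, at 170 kb, held 7. Cipc, whose product interacts with CLOCK, had 43.9 at 20756 bp from the gene, and Nr1d2, which encodes the repressor REV-ERBβ, had 39.6 inside the gene. Both are above Dbp. Fbxl21, an F-box gene whose product acts on cryptochromes, had 16.6 at 12343 bp from the gene. Npas2, a paralogue of Clock, had 15.98 at 553 bp as the strongest of 7 peaks. Bhlhe41 and the strongest Hlf peak thus lie near these last values and Tef, at 9.45, near the list's median. Clock, Cry1, Per2, Arntl2 and Timeless, like Bhlhe40, had no peak. The clock list was drawn up with results of these data known.

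**Figure D4:**
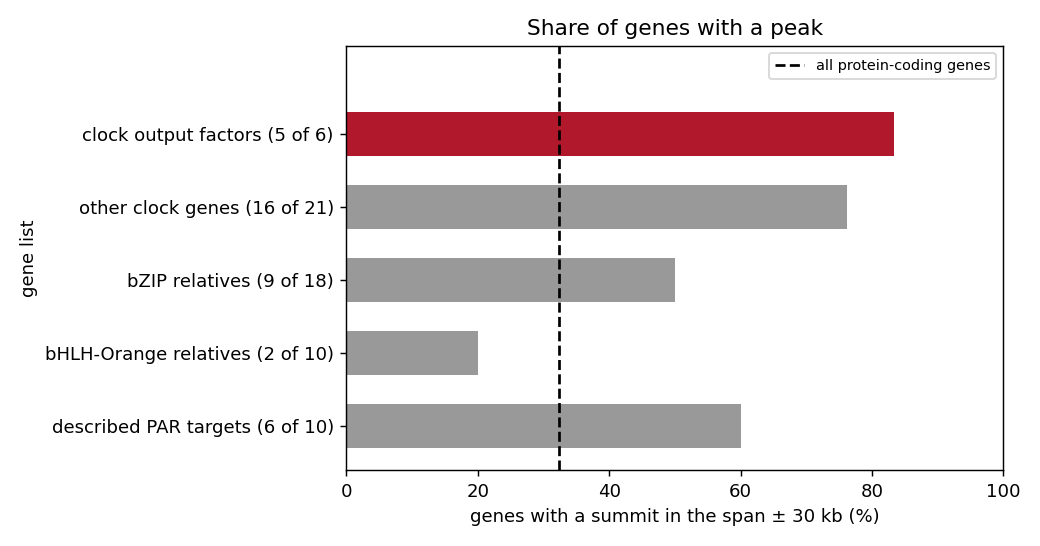
Share of genes with a peak. Bars show, for the 6 clock output factors and 4 lists of related genes, the percentage with a summit in the gene span extended by 30 kb, with the counts in brackets, and the dashed line is the share of all protein-coding genes, 32.4%. The output factors stand at 83.3%, the other clock genes at 76.2%, and the bHLH-Orange relatives of the Bhlhe genes at 20%, below the line.

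Of 18 other bZIP genes, structural relatives of the PAR factors and NFIL3, 9 had a peak (50%), 1 each, with a median strongest fold of 7.17. The 95% limits of that share, 26.0% and 74.0%, include the 32.4% of all protein-coding genes. Atf5, a stress-response factor gene, had 18.9 inside the gene, Ddit3, which encodes CHOP, had 9.12 at 566 bp, Cebpd had 8.08 at 23937 bp and Jun, an AP-1 subunit gene, had 8.08 at 104 bp. Of 10 genes of the bHLH-Orange family, repressors related to BHLHE40 and BHLHE41, 2 had a peak (20%, limits 2.52% and 55.6%, which also include 32.4%). These were Hey1, at 11.6 inside the gene, and Hes7, at 5.20 as the strongest of 3. All 3 Hes7 peaks also fall in the window of Per1. Hes1, Hes2, Hes3, Hes5, Hes6, Hey2, Heyl and Helt had none.

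Among 10 genes described as targets of PAR factors, mostly from liver, 6 had a peak (60%), with a median strongest fold of 8.11. The 95% limits of that share, 26.2% and 87.8%, include the 32.4% of all protein-coding genes. Alas1, the gene of the first enzyme of haem synthesis, had 27.0 inside the gene and 3 peaks. Nr1i3, a nuclear receptor gene, had 9.72 at 24767 bp, the clock repressor gene Per1 8.47 at 7878 bp, and Ppara, a fatty acid receptor gene, 7.75 at 18677 bp. Pdxk, the pyridoxal kinase gene that depends on PAR factors in mouse brain, had 1 peak of 7.17 with its summit 2 bp from the gene. Por, the gene of cytochrome P450 reductase, had 5.41. Cyp7a1, Cyp2a5, Ces2e and Per2 had none. Per1 and Per2 also belong to the clock list.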

How the data were processed

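Chromatin of mouse striatum was measured by ChIP-seq in 1 input and 3 IP fractions, grouped by the labels, which are represented by 1 deposited peak list. Per the submitters' processing notes, the tools were MACS2 2.1.1.20160309.0 and Bowtie2 2.3.4.2 and the build was mm10 (GRCm38), with no settings; the sources used here do not state whether fractions were pooled. Each row holds, as the authors deposited it, the pileup signal at each summit, a fold enrichment, and a p-value and q-value as −log10, per the file headers. The authors' fold was read as a linear ratio, (pileup + 1) / (background + 1), the form in which MACS2 writes it. The score of a peak is thus the authors' own.

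Pileups lay on a grid of step 0.939 (largest residual 0.00574), taken as 1 fragment. Background was recovered from it as (pileup + 1) / fold − 1. Library depth is unknown. Poisson intervals at 95% cover counting error only, and PCR copies are not independent molecules. Genes and starts came from RefSeq tables of GRCm38.p6, the build of mm10; all listed symbols matched, and 1 clock gene of the planned list is not reported here. No exon annotation or genome sequence was used. Windows with GC of at least 60% and genes with spans from 1/2 to 2 times a member's were set apart after the values were seen. The members and lists were chosen with earlier results of these data known. Named genes were all 6 members, genes nearest to or around their peaks, the 4 highest folds of each list and the whole of lists of 10; other named genes were chosen after their values were seen. Alternatives changed the peak filter, the window, the overlap rule, the gene types and the ranking. Counting was tested on simulated data. Python 3.11.15, pandas 2.3.3 and SciPy 1.17.1 were used.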

Additional observations from a re-analysis of the deposited data

How the results depend on the processing

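Genes with a peak numbered 4 to 6 of 6 over the 8 alternatives to the peak filter and window, and peaks at them 5 to 12, beside 5 and 8 as reported. With folds above the list median 5 peaks were left, and Nfil3 lost its peak there and at a −log10 q of at least 10. Without the 1% highest pileups and 1% widest peaks Dbp lost its peak, and with 100 kb on both sides Bhlhe40 gained 1. The share of all protein-coding genes with a peak was 20.4% at a −log10 q of at least 10 and 19.5% with folds above the list median. It was 32.1% without the 1% highest pileups and 1% widest peaks. With 5, 10 and 100 kb on both sides it was 19.1%, 22.2% and 54.0%. Counting any base of the peak gave 32.5%, and summits within 30 kb of either gene end gave 30.1%. Genes of every type gave 24.6%. For the strongest peak of each gene, ranks by pileup or −log10 q were within 1.5 times those by fold, except Bhlhe41 at 539 by pileup. Weaker peaks could move further: the Hlf peak 9.57 kb downstream of the start ranked 5257 by fold, 2259 by pileup and 3489 by −log10 q. No paired analysis was possible because no value per fraction was analysed here, and leaving out single fractions was not possible either. Fragment counts, not known depth, limit precision, and the smallest stack in the list was 10 fragments.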
